A study of Mus musculus with 3 samples.

Results

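Chromatin bound by Tex10 was examined at the loci of Klf2, Klf4 and Klf5 in mouse embryonic stem (ES) cells. The members are the peaks of a deposited FLAG-Tex10 peak list that overlap 1 of 3 fixed windows of the mm9 genome, which were chr8:74790000-74900000 for Klf2 (110 kb), chr4:55440000-55600000 for Klf4 with its distal enhancers (160 kb) and chr14:99640000-99770000 for Klf5 (130 kb). There were 11 such peaks of 5189 in all, 3 at Klf2, 6 at Klf4 and 2 at Klf5. The study made 3 libraries, a chromatin immunoprecipitation (ChIP) with an antibody to the FLAG tag, a mock precipitation with Normal Mouse IgG and a library of input chromatin, with 1 library in each group. All 3 came from the same cells, J1 ES cells of the 129SV strain in which a 3xFlag-Tex10 transgene was expressed ectopically from piggyBac transposon vectors, grown in serum with leukaemia inhibitory factor (LIF) and labelled T10F10. The promoter of the transgene and whether T10F10 is 1 clone are not given in the labels. Peaks were available from the FLAG library only, so all values below come from 1 immunoprecipitation without replicates. Values of the IgG and of the input chromatin are not used here. The list gives a position and a score for each peak and no read counts, so the depth is unknown and nothing was tested over samples. The score has no stated scale, and it was used only within the list. It served to rank peaks, to cut the list at 10 and to find peaks within 1 of each other in score. What a difference of 1 means is unknown.

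Klf2, Klf4 and Klf5 encode zinc finger transcription factors of the Krüppel-like family, which bind GC-rich and CACCC-type sequences. In mouse ES cells the 3 factors act together and partly in place of each other to sustain self-renewal, and Klf4 is also one of the factors that reprogram somatic cells to pluripotency. Klf4 is a target of LIF signalling through Stat3 in these cells, and distal enhancers that drive it lie downstream of the gene. Tex10 is a nuclear protein known both from a complex that acts in ribosome biogenesis and from pluripotency, and the series title places it at super-enhancers, dense groups of enhancers that serve genes of cell identity.

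Promoter sequence of Klf2 and Klf4 is shown because these are the start regions of 2 of the genes for which the windows were drawn. It comes from RefSeq on GRCm38.p6, a different build from the peaks, and 2 of the 3 genes were matched. No peak was placed on these sequences, and whether any peak covers a promoter was not determined. Each run gives the 250 bases before the annotated start, 5′ to 3′ on the strand of the gene, with matches to the GC box GGGCGG on either strand in capitals. The Klf2 sequence lies on the plus strand at chr8:72318812-72319061 and the Klf4 sequence on the minus strand at chr4:55532476-55532725.
Klf2: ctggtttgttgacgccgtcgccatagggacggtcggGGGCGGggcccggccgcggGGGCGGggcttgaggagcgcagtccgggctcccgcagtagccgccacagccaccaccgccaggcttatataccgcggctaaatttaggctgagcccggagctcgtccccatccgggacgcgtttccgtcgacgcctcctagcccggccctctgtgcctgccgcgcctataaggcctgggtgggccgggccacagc
Klf4: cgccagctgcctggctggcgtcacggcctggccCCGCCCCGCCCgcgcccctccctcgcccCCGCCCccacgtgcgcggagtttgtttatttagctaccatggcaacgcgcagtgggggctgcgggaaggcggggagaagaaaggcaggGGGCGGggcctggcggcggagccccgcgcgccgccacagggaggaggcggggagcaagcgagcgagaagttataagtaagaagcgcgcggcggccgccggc

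Both promoters were GC-rich. The Klf2 promoter was 71.2% G or C and the Klf4 promoter 74.0%, against a median of 52.4% over 32851 RefSeq promoter stretches of the same length. The GC box, to which Sp and Krüppel-like factors bind, was found 2 times at Klf2 and 4 times at Klf4, where 2 of the matches share 1 base. Of all promoter stretches, 16.7% held at least 2 GC boxes and 4.09% at least 4. The stretches belong to 27025 genes, so some genes count more than once. GC content was lower than at Klf2 in 92.2% of them and lower than at Klf4 in 95.1%. GGGCGG holds only G and C, and its share among stretches of like GC content was not computed. Neither promoter held a match to CCACNCCC, a Krüppel-like factor motif found in 15.9% of all stretches on either strand, to the STAT motif TTCNNNGAA (7.02%) or to the octamer ATGCAAAT of Pou5f1 (1.60%). Other CACCC-type sequences were not searched for. The Klf2 stretch shown holds gggtggg, which reads CCCACCC on the other strand, so the lack of CCACNCCC is not a lack of all such sequences. These are letter matches only.

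Klf4 had the most peaks of the 3 loci and Klf2 the highest-scoring ones. At Klf2 the 3 peaks all scored above 12, at Klf5 both scored between 6 and 10, and at Klf4 the 6 peaks ran from 3.45 to 12.7. Of the 11 peaks, 4 scored at least 10, which were all 3 at Klf2, 1 of 6 at Klf4 and 0 of 2 at Klf5. In the whole list 14.5% of peaks reached 10. A score at or above the list median of 5.22 was reached by 7 of the 11 peaks, again all 3 at Klf2, 2 of 6 at Klf4 and both at Klf5, against 50% in the whole list.

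**Figure D1:**
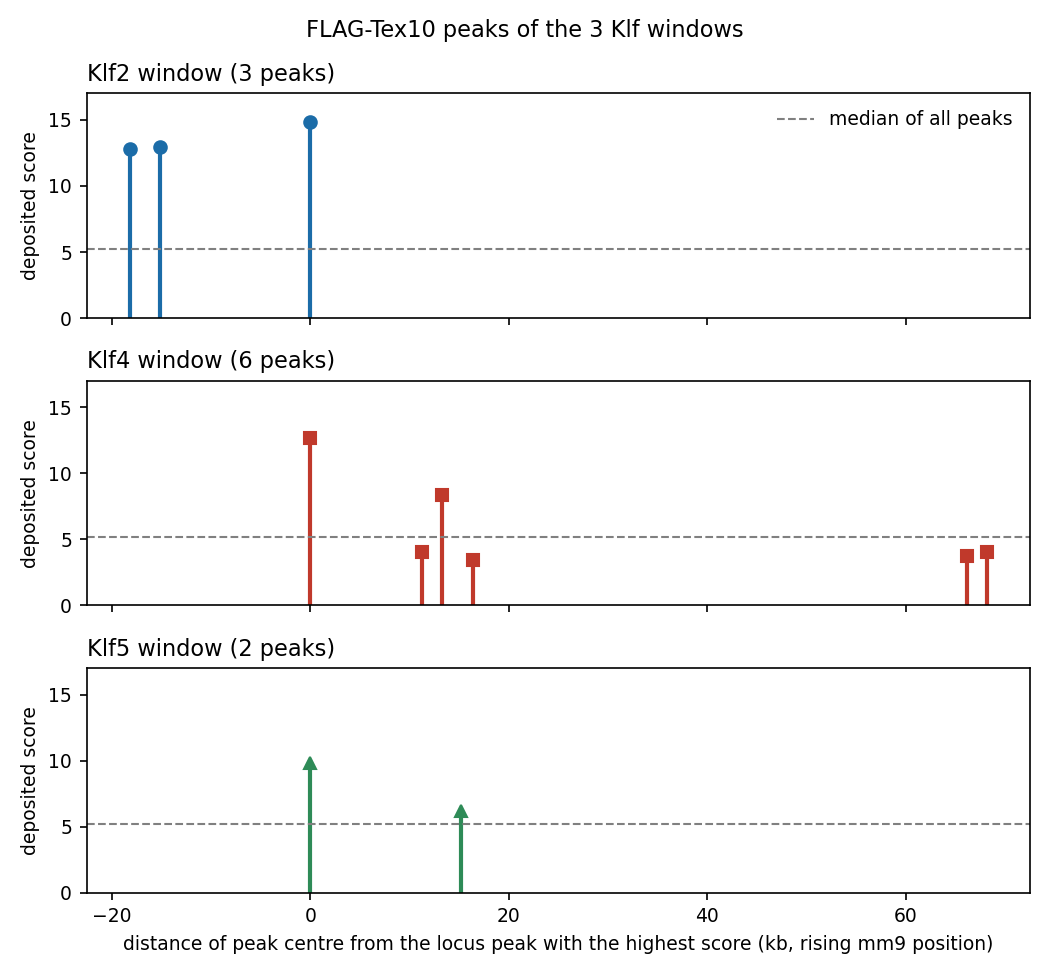
Deposited score of each peak (vertical axis, no stated unit) against the distance of its centre from the highest-scoring peak of the same window (horizontal axis, kb), with the median score of all peaks as a dashed line at 5.22. All 3 Klf2 peaks and both Klf5 peaks stand above the line, and 4 of the 6 Klf4 peaks stand below it.

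The Klf2 peaks were alike in score and compact in position. Klf2 is the member of the family also known from lung and blood vessels. Its highest peak, at chr8:74858196-74858580, was 385 bp wide and scored 14.8, above 93.1% of all peaks. The middle peak, at chr8:74842963-74843595, was the widest of the window at 633 bp and scored 13.0, above 91.1% of all peaks. The first, at chr8:74840027-74840299, was 273 bp wide and scored 12.8, above 90.7% of all peaks. The 3 Klf2 scores thus lay within a narrow band of the list, at ranks 358 to 483 of 5189. Within chromosome 8, which carried the most peaks per length of the 19 autosomes (0.336 per 100 kb), they ranked 32, 38 and 40 of 443. The share of peaks with a score of at least 10 was 14.4% on chromosome 8 (64 of 443), close to the 14.5% of the whole list.

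A gap of 2.66 kb separated the first and the middle Klf2 peak, and 14.6 kb separated the middle one from the highest. All 3 lay within 18.6 kb, or 16.9% of the window. This was not particular to Klf2, since the 2 Klf5 peaks lay within 15.8 kb, or 12.2% of their window. The Klf4 peaks spanned 68.7 kb, or 42.9%. The next peaks outside had lower scores. The first one before the locus, at chr8:74432678-74433014, scored 1.97 and lay 407 kb away. The first one after it, at chr8:75071737-75072047, scored 3.46 and lay 213 kb away. Gaps at least as wide as these made up 27.2% and 40.6% of those between neighbouring autosomal peaks. Peaks of the list joined where less than 12.5 kb apart are called a stretch here. By this distance the Klf2 peaks made 1 pair of 3.57 kb and 1 single peak, with 0 peaks in a stretch of 3 or more. Joining under 20 kb instead put all 3 in 1 stretch.

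The Klf4 peaks fell into a group of 4 and a pair, separated by 49.4 kb without a peak. The group of 4 spanned 16.9 kb at chr4:55476865-55493813 and held the 2 strongest peaks of the window. The peak that opened it, at chr4:55476865-55477501, scored 12.7, above 90.6% of all peaks, and at 637 bp was the widest at Klf4. After a gap of 10.8 kb came a narrow peak of 243 bp at chr4:55488319-55488561, which scored 4.05. The next, at chr4:55490202-55490611, was 410 bp wide and scored 8.37, above 79.3% of all peaks. The last of the group, at chr4:55493299-55493813, was 515 bp wide but scored 3.45, above 19.3% of all peaks. Higher and lower scores thus alternated along the group. Its last 3 peaks were separated by gaps of only 1.64 kb and 2.69 kb, so most of the group lay at one end of it.

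The pair at Klf4 was weak. Its peaks lay at chr4:55543251-55543544 and chr4:55545191-55545518, 1.65 kb apart, and scored 3.75 and 4.05, above 25% and 29.7% of all peaks. They were 294 and 328 bp wide, close to the list median of 314 bp. Both lay below the median score, and so did 2 of the 4 peaks in the group. Centre to centre, the pair was 66.2 and 68.2 kb from the strongest Klf4 peak. The score of 4.05 that the second peak of the pair shares with the narrow peak of the group recurred exactly in 150 peaks, more than any other value of the list. Which of these peaks lie in the Klf4 gene or in its enhancers was not determined, since no annotation of mm9 was used.

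Klf4 was the only one of the 3 loci with a stretch of 3 or more peaks when peaks were joined under 12.5 kb. A stretch of at least 2 held 8 of the 11 Klf peaks, against 29.8% of all peaks outside the mitochondrial genome. Those 8 were the pair at Klf2 and the group and the pair at Klf4, so they are not independent of each other. The windows were set around loci, whereas the whole list includes peaks that lie alone, so the 2 shares are not alike in kind. In the whole list, 604 of 5187 peaks outside the mitochondrial genome (11.6%) lay in stretches of at least 3 peaks, and 4 of the 11 Klf peaks did, all at Klf4. Stretches of at least 4 peaks numbered 53 of 4274 (1.24%, single peaks included). Among these 53 the Klf4 stretch was of ordinary strength, with 24 of them holding a higher top score, and 17 of them were longer. Its length of 16.9 kb compares with a median of 14.1 kb over the 53, and its top score of 12.7 with a median of 12.3.

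Beyond the window the surroundings of Klf4 were unequal. The first peak before the locus, at chr4:55362897-55363443, scored 7.20 and lay 113 kb from the group, and 54.3% of autosomal gaps were at least that wide. The first after it, at chr4:56877307-56877539, scored 3.65 and lay 1332 kb from the pair. Of 5101 gaps between neighbouring autosomal peaks 9.14% were at least that wide, and the median gap was 140.1 kb.

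Klf5 had the fewest peaks, and they were wide. Klf5, like Klf4, is also known from the intestinal epithelium. The first, at chr14:99723927-99724371, was 445 bp wide and scored 9.83, above 84.5% of all peaks and rank 22 of 195 on chromosome 14. The second, at chr14:99738849-99739771, scored 6.19, above 62.3% of all peaks. At 923 bp it was the widest of the 11 and rank 39 of 5189 in width. Both stood above the median in score and in width. A gap of 14.5 kb separated them, so that each counted as a single peak when joined under 12.5 kb and the 2 became a pair under 20 kb. The nearest peak before them, at chr14:99507124-99507366, scored 5.82 and lay 217 kb away. The nearest after them, at chr14:100683659-100684337, scored 9.11 and lay 944 kb away. Of the autosomal gaps 40.1% were at least as wide as the gap before the Klf5 peaks, and 12.9% at least as wide as the one after them.

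**Figure D2:**
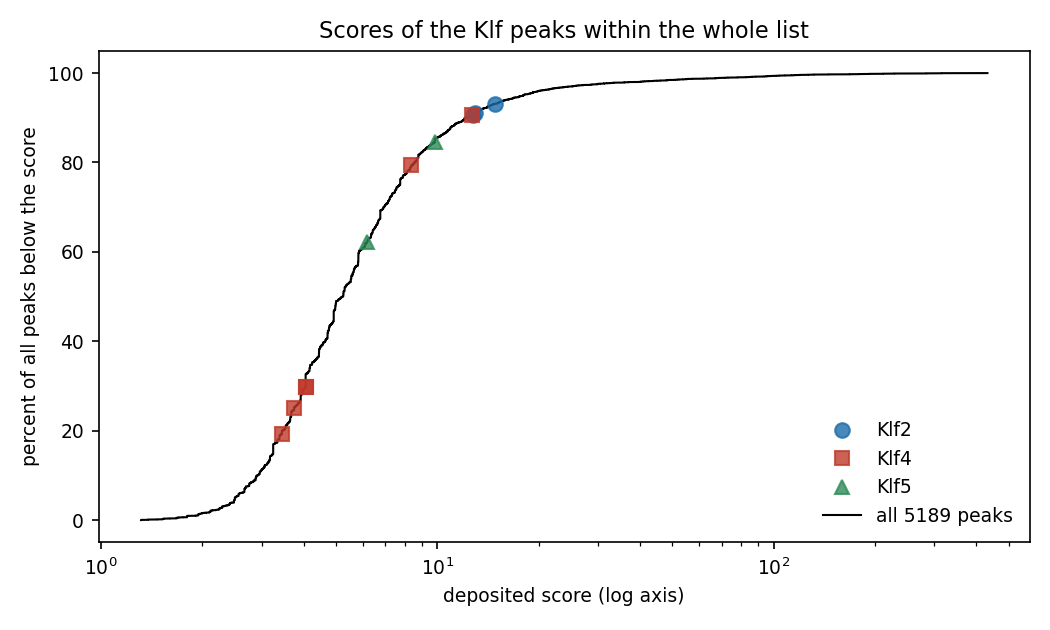
Percent of all 5189 peaks with a lower score (vertical axis) against the deposited score (horizontal axis, log scale), with the list as a line and the Klf peaks as symbols. The Klf2 peaks sit above 90.7% of the list or more, the Klf5 peaks above 62.3% and 84.5%, and 4 Klf4 peaks above 29.7% or less.

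The Klf2 scores did not overlap those of the other loci, but the margin was small. The lowest Klf2 peak (12.8) held rank 483 of the list and the highest Klf4 peak (12.7) rank 489. Both Klf5 scores lay within the range of the Klf4 scores. The highest Klf5 peak (9.83) lay above 5 of the 6 Klf4 peaks. With 1 library, how far such scores would move in a repeat is unknown, so this order is a description of the list. The highest score of all in the list was 432, so none of the 11 peaks belonged to its extreme top.

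Most of the Klf peaks were wider than the median peak of the list. Their widths ran from 243 to 923 bp with a median of 410 bp, against a median of 314 bp and quartiles of 253 and 402 bp for all peaks, and 8 of the 11 were wider than the overall median. Each locus had 1 peak of at least 633 bp, a cut-off taken from the widest Klf2 peak itself. In the whole list, 259 of 5189 peaks were at least that wide. The widest at Klf2 was its middle peak in score, the widest at Klf4 its strongest and the widest at Klf5 its weaker one. Of the 3247 peaks that scored no higher than the 923 bp Klf5 peak, it was among 6 of that width or more. Of the 1027 peaks that scored no higher than the 515 bp Klf4 peak, 37 were at least as wide, itself included. Not all Klf peaks were wide for their score. Among peaks with a score within 1 of theirs, the median width was 378 bp for the 273 bp Klf2 peak. It was 398.5 bp for the 385 bp Klf2 peak and 280 bp for the 243 bp Klf4 peak. The other Klf peaks were wider than this median.

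**Figure D3:**
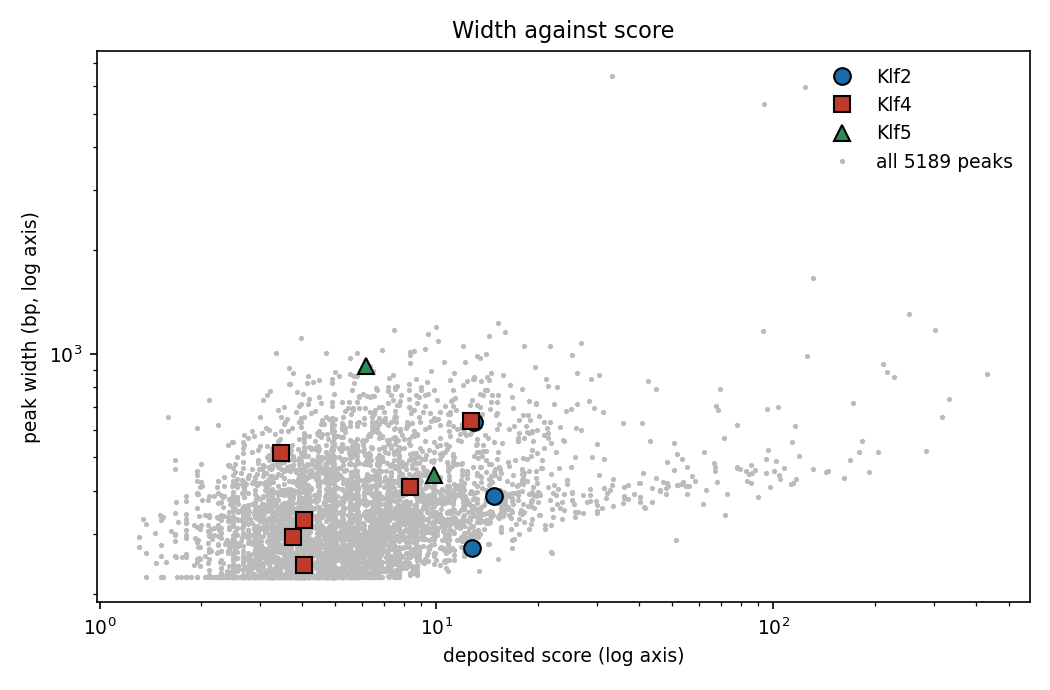
Peak width (vertical axis, bp, log scale) against deposited score (horizontal axis, log scale) for the Klf peaks as outlined symbols and all 5189 peaks as grey dots. The second Klf5 peak, 923 bp wide at a score of 6.19, lies at the upper edge of the cloud, and the Klf2 peaks range from 273 to 633 bp at nearly equal scores.

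All 3 windows held peaks at a higher density than the autosomes as a whole. There were 2.73 peaks per 100 kb in the Klf2 window, 3.75 in the Klf4 window and 1.54 in the Klf5 window, against 0.207 over all autosomes. The Klf2 window was 13.2 times, the Klf4 window 18.1 times and the Klf5 window 7.43 times as dense. With only peaks at or above the median score the ratios were 26.4 at Klf2, 12.1 at Klf4 and 14.9 at Klf5, so the order of the loci changed and Klf4 went last. Against the rest of their own chromosomes the ratios were 8.16 at Klf2, 15.8 at Klf4 and 9.97 at Klf5. The windows were drawn around genes of interest with results from this list known, and with so few peaks these ratios carry no test.

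Consecutive tiles of the same lengths over the autosomes show how often so many peaks occur. At least 1 peak was found in 15.8% of 110 kb tiles, 21.2% of 160 kb tiles and 18% of 130 kb tiles. At least 3 peaks, as in the Klf2 window, were found in 1.56% of the 110 kb tiles (350 of 22465). At least 6 peaks, as in the Klf4 window, were found in 0.201% of the 160 kb tiles (31 of 15442). At least 2 peaks, as in the Klf5 window, were found in 5.54% of the 130 kb tiles (1053 of 19010). On its own chromosome the share was 3.43% for Klf2 and 4.26% for Klf5. For Klf4 it was 0 of 972 tiles. The Klf4 peaks themselves are divided by a tile border, and no other tile of chromosome 4 held as many. Tiles have fixed borders and include assembly gaps, whereas the windows were set around the loci, so the shares are a rough guide.

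**Figure D4:**
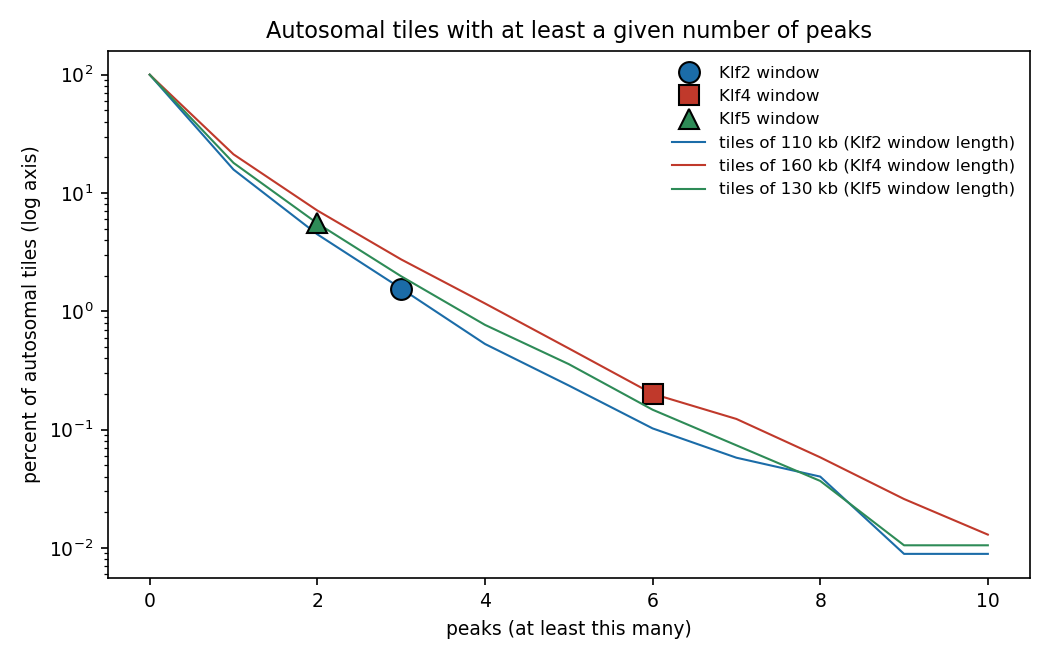
Percent of autosomal tiles (vertical axis, log scale) with at least a given number of peaks (horizontal axis), 1 line for each window length, with a symbol at the number of peaks in the Klf2, Klf4 and Klf5 windows. The symbols sit at 1.56% for Klf2, 0.201% for Klf4 and 5.54% for Klf5.

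Windows of the same length, 5 on each side, held 6 peaks in all around Klf2, 3 around Klf4 and 2 around Klf5. This came to 0.545 peaks per 100 kb around Klf2, 0.188 around Klf4 and 0.154 around Klf5, against 0.207 over all autosomes. Empty flanking windows numbered 7 of 10 at Klf2, where 84.2% of autosomal tiles of that length were empty. They numbered 7 of 10 at Klf4, against 78.8% of such tiles, and 9 of 10 at Klf5, against 82.0%. The Klf4 window, with 6 peaks, exceeded each of its flanking windows, which held at most 1. The Klf2 and Klf5 windows were equalled by 1 flanking window each, with 3 and 2 peaks. The ratio of the window to the mean of its flanks was 5.0 at Klf2, 20.0 at Klf4 and 10.0 at Klf5.

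**Figure D5:**
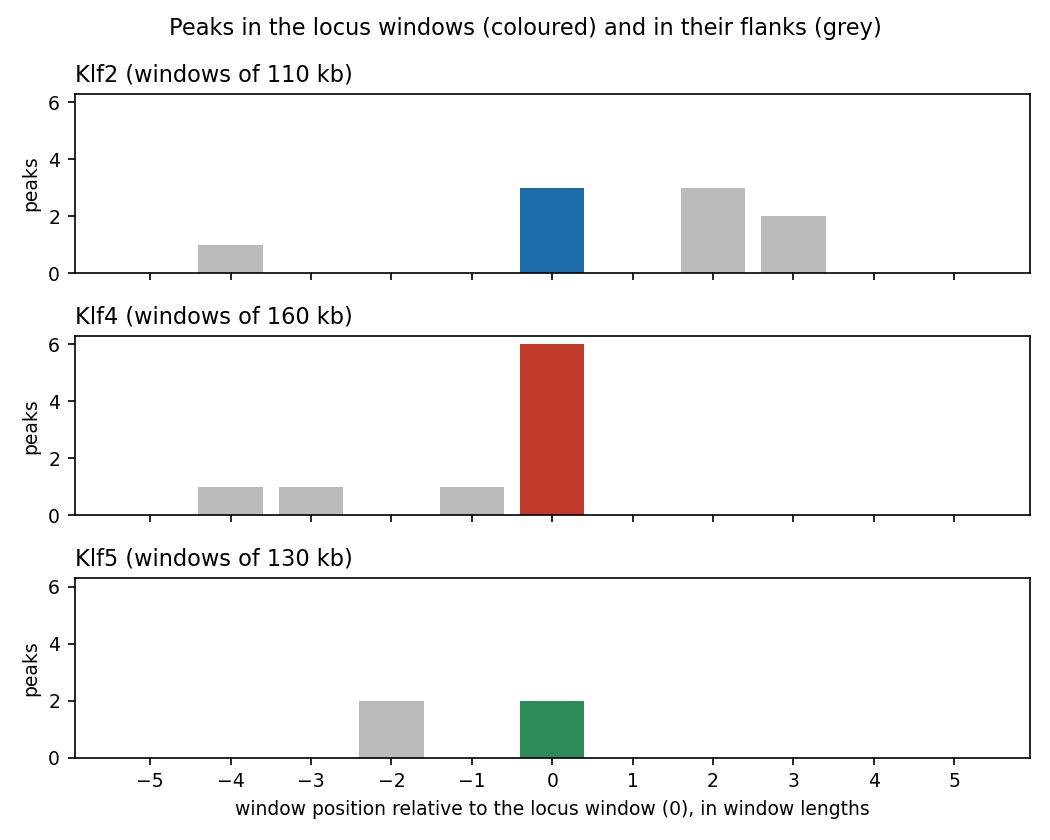
Number of peaks (vertical axis) in each locus window (coloured, position 0) and in the 5 windows of the same length on either side (grey), along rising mm9 position in window lengths. Klf4 has 6 peaks against at most 1 in a flanking window, and the 3 peaks of Klf2 and the 2 of Klf5 are each equalled by 1 flanking window.

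Peaks within the loci lay close to one another. The distance to the nearest other peak had a median of 2.66 kb over the 11 Klf peaks, against 52.3 kb over all autosomal peaks. It was under 5 kb for 7 of the 11, and 21.7% of autosomal peaks had a neighbour that near. All 11 had a neighbour within 20 kb, as did 34.2% of autosomal peaks. Since each window holds at least 2 peaks of 1 locus, the 11 distances are not independent of each other. Near neighbours also follow in part from the density of the windows, whereas the autosomal peaks include those that lie alone. The comparison is therefore not separate from the density given above.

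In the RefSeq gene order of GRCm38.p6, the nearest protein-coding neighbours are Ap1m1 and Eps15l1 for Klf2, Rad23b and Actl7b for Klf4, and Pibf1 and Klf12 for Klf5. Ap1m1 encodes a clathrin adaptor subunit and Eps15l1 a protein of endocytosis, and Rad23b acts in DNA repair. Klf12, the neighbour of Klf5, is itself a Krüppel-like gene. Peaks of the windows were not assigned to any of these genes, and the Klf names describe the windows and not a proven target.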

How the data were processed

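The data are 1 list of peaks of a FLAG-Tex10 ChIP-seq library, sequenced per the labels as single-end reads of 100 bases. The peaks and 1 score per peak were used as the authors deposited them, with no header. Reads were processed on mm9, per the submitters' processing notes, which list, without roles, bedtools 2.18.1, SAMtools 0.1.19, Bowtie 1.0.0 and FastQC 0.10.1. The peak caller, its control and the scale of the score are not given in the sources used here. A thresholded list depends on depth, which is unknown. Starts are 1-based. Peaks overlapping a window by any base were taken, and all of them are named. Chromosome lengths came from GenomeInfoDb 1.38.1 (R 4.3.3), and the analysis used Python 3.11.15 and pandas 2.3.3. Counting was tested on simulated lists. Members, lists and motifs were chosen with earlier results of these data known. Promoters were read from RefSeq (GRCm38.p6). Comparing the Klf proteins, annotating the peaks with genes, and searching them for motifs were planned and not run, since no protein table, mm9 annotation or mm9 sequence was used here.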

Additional observations from a re-analysis of the deposited data

How the results depend on the processing

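Of 42 other settings tried over 18 values, 34 stayed within 1.5 times the count or within the exact binomial 95% interval of the value, which treats peaks as independent. Some of the 34 could not move, so their number is no measure of robustness. No peak crossed a window edge, so counting by peak centre changed nothing. The smallest gap at the loci was 1.64 kb, so joining peaks under 500 bp apart merged none. Klf5 had 2 peaks and the nearest other lay 217 kb away, so no join distance tried could give it a stretch of 3. Klf2, with 0 peaks in such stretches under 12.5 kb, could gain none under 5 kb. The number of peaks at Klf4 depended on the score, with 2 at or above the median and 1 of at least 10, and at Klf5 0 reached 10. Joining under 20 kb put 3 Klf2 peaks in a stretch of at least 3, where 0 were under 12.5 kb. Tiles of its own chromosome with at least as many peaks made up 3.43% for Klf2, 0% for Klf4 and 4.26% for Klf5. A tile border divides the Klf4 peaks, and no other tile of chromosome 4 held as many. On its own chromosome the highest Klf5 peak outscored 88.2% of peaks. Intervals from so few peaks are wide: the density ratio counted as kept at Klf2 although it ran from 5.0 (against the flanks) to 26.4 (peaks at or above the median score), at Klf4 from 12.1 (median score) to 20.0 (flanks) and at Klf5 from 7.43 (all autosomes) to 14.9 (median score). Klf4 was the densest with all peaks and the least dense with those at or above the median score. With windows widened by 50 kb on each side the density was 1.43 peaks per 100 kb at Klf2, 2.31 at Klf4 and 0.870 at Klf5. The widening added no peak at any locus, so these lower values follow from the added length alone. No paired analysis was possible because there is 1 library per group. Peaks below the threshold of the list are not in it, which depth limits.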
